A study of Rattus norvegicus with 12 samples.

Results

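The NFE2L2 antioxidant genes described here are the transcription factor gene Nfe2l2, its repressor Keap1, and 8 genes known as targets of the factor in rodents or human cells, namely Gclc, Gclm, Txnrd1, Srxn1, Nqo1, Akr1b8, Hmox1 and Osgin1. The 10 members were taken by gene symbol, with the brightest annotated row over all arrays standing for each gene. All 10 had a row, out of 18166 genes with a row of their own. In male rats of the Sprague-Dawley strain, aged 7 to 9 weeks, the inferior vena cava was ligated between the renal veins, so that the left kidney drained against a raised venous pressure. The left kidney is called congestive and the right kidney control. At day 3 the cortex and the outer medulla of both kidneys were hybridised to GeneChip Rat Gene 2.0 ST arrays, with 3 arrays in each of 4 groups (control cortex, congestive cortex, control outer medulla and congestive outer medulla). The control kidney lay in the same ligated animal and is no sham-operated kidney.

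KEAP1 holds the NFE2L2 protein (also called NRF2) in the cytosol and passes it to a ubiquitin ligase for destruction. Oxidants and electrophiles modify cysteines of KEAP1, the factor is then spared, enters the nucleus and binds antioxidant response elements together with a small MAF protein. Its targets make glutathione, keep thioredoxin reduced, clear quinones and aldehydes, and degrade heme, and the factor is regulated largely at the level of its protein, which arrays do not measure.

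Promoter windows from 250 bases before to 50 bases after the start were found in RefSeq (GRCr8) for 9 of the 10 members, with 10 windows in all, and Hmox1 was not matched. They are shown because the members are grouped by a shared factor. The core of the response element, TGACNNNGC, was searched on both strands, and 3 of the 10 windows held it, against 12.1% of all 33469 windows of the same length. The 3 windows follow 5′ to 3′ on the strand of the gene, with the matching letters in capitals. They lie at chr2:213031885-213032184 on the plus strand for Gclm, with the match on the opposite strand, at chr3:81028950-81029249 on the minus strand for Nfe2l2, and at chr7:22755855-22756154 on the minus strand for Txnrd1, again with the match on the opposite strand. A match is a description of the letters. Elements outside these windows, or spelled in another way than TGACNNNGC, were not looked for, so a window without a match may still hold one.
Gclm: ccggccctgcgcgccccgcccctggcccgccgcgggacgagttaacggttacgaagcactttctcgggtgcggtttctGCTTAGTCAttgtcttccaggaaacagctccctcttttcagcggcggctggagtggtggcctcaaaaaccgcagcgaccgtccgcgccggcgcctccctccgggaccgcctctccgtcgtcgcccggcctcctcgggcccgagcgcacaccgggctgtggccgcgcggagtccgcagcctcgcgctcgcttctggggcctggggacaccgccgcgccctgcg
Nfe2l2: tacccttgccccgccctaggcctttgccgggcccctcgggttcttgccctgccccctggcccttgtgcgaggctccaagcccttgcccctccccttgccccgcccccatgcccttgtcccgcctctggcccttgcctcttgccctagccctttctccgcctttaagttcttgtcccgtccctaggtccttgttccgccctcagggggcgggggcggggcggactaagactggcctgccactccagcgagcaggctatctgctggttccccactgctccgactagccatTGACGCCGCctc
Txnrd1: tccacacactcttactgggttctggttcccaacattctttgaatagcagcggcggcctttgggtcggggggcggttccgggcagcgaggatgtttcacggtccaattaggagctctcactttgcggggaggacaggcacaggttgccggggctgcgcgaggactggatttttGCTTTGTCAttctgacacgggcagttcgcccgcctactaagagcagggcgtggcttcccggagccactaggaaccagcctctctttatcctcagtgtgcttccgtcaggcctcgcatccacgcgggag

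The deposited values were log2 array signals normalized between arrays by the authors, with array medians between 6.02 and 6.09. Levels are therefore in log2 units and are compared within a gene, never between genes. Changes are congestive minus control from a paired model in limma, and p values were adjusted for all 18166 genes by the Benjamini-Hochberg procedure. A gene is called where its adjusted p is under 0.05. The number of arrays limits the precision, and an unpaired exact permutation of 3 against 3 kidneys can reach no p below 0.1. The labels give replicate numbers but no animal names, and the p values measure the spread between these arrays. As a check of the dissection, outer medulla was compared with cortex in the control kidneys. All 7 measured thick ascending limb markers were higher and all 3 measured podocyte markers lower in outer medulla. The cortex samples were uneven for Slc7a13, a proximal tubule marker that ranged from 6.44 to 10.46 over the control cortex arrays. The part of dissection in that range was not tested. In tissue RNA, fewer cells of a type and less RNA per cell cannot be told apart.

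In the outer medulla the members moved in opposite directions. Hmox1, Akr1b8 and Nfe2l2 rose, and Osgin1, Nqo1 and Gclm fell. The rises were 2.69-fold for Hmox1, 2.44-fold for Akr1b8 and 1.23-fold for Nfe2l2, while Osgin1 was 2.53-fold, Nqo1 1.65-fold and Gclm 1.25-fold lower. Over all genes 11.8% were called higher and 11.3% lower in this comparison, against 3 and 3 of the 10 members. The median change of the members was -0.22 and that of all genes -0.01. In the cortex Akr1b8 alone passed the threshold, at 1.52-fold higher, where 7.98% of all genes were called higher and 3.64% lower. The median change there was 0.07 for the members and -0.02 for all genes. The congestive and control arrays did not overlap for 4 members that were higher and 5 that were lower in outer medulla, where 18.4% of all genes were higher and 17.5% lower without overlap. In cortex this held for 0 members that were higher and 2 that were lower, against 17.2% and 16.8% of all genes.

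**Figure D1:**
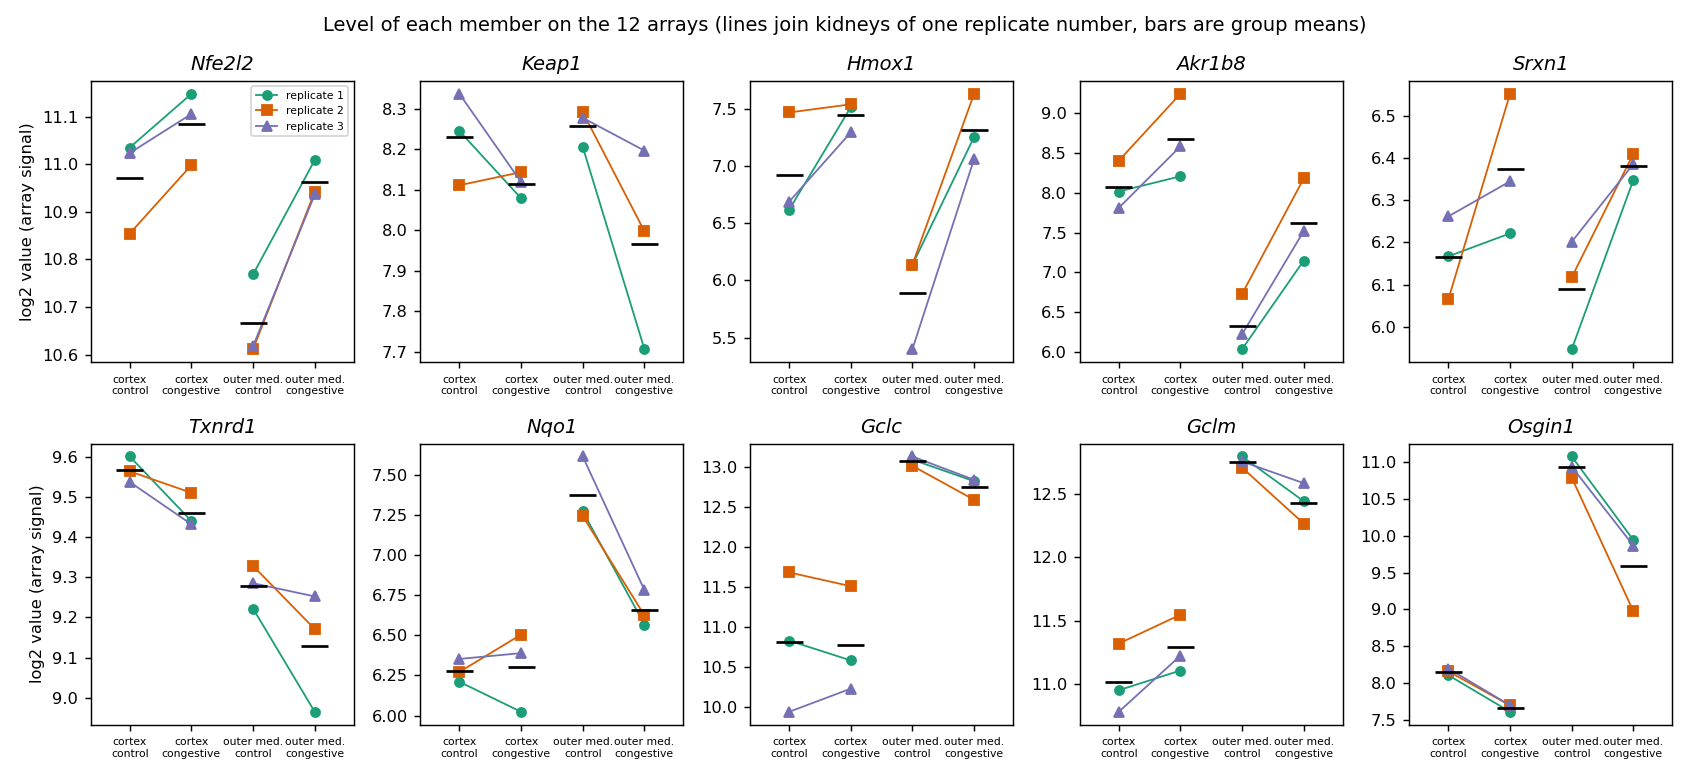
Log2 value of each of the 10 members (vertical axis, own scale per panel) on the 12 arrays, by region and condition, with coloured lines joining the control and congestive kidney of a replicate number and black bars at the group means. In outer medulla the 3 congestive arrays lie clear of the 3 control arrays for every member but Txnrd1, whereas in cortex this holds only for Osgin1 and Txnrd1.

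The regulator itself was described first. Nfe2l2 read 10.77, 10.61 and 10.62 in the control outer medulla and 11.01, 10.94 and 10.94 in the congestive outer medulla. All congestive arrays were above all control arrays. The rise was 0.30 on the log2 scale (higher in 3 of 3 pairs, standard error 0.07, adjusted p = 0.017, limma), and it was no longer called when any one replicate was left out (adjusted p = 0.094, 0.13 and 0.10 without replicate 1, 2 and 3). In the cortex the values were 11.04, 10.85 and 11.02 against 11.15, 11.00 and 11.11, and the groups overlapped. That difference was 0.11 (95% interval -0.05 to 0.27, adjusted p = 0.33), although each pair was higher on the congestive side. The change in outer medulla exceeded that in cortex by 0.18 (95% interval -0.04 to 0.41, adjusted p = 0.43).

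Keap1, which encodes the repressor, read 8.21, 8.29 and 8.28 in the control outer medulla and 7.71, 8.0 and 8.20 in the congestive outer medulla. The groups did not overlap, but the pairs differed among themselves, from -0.50 in replicate 1 to -0.08 in replicate 3. The difference of -0.29 did not pass (95% interval -0.52 to -0.07, adjusted p = 0.068). In the cortex it was -0.12 (adjusted p = 0.48), with the values of both kidneys intermixed. Among 18 measured relatives, partners and other regulators of the factor, 1 was called in the outer medulla and 0 in the cortex. Over all genes 11.8% were called higher and 11.3% lower in outer medulla, and 7.98% and 3.64% in cortex. The called gene was Crebbp, which encodes a histone acetyltransferase and coactivator. It rose by 0.25 in outer medulla (adjusted p = 0.046), with a difference of the same size in cortex (0.25, adjusted p = 0.070). This call was absent when any replicate was left out.

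Gclc and Gclm encode the catalytic and the modifier subunit of glutamate-cysteine ligase, the rate-limiting enzyme of glutathione synthesis. Gclm read 12.79, 12.71 and 12.76 in the control outer medulla and 12.44, 12.27 and 12.58 in the congestive one, with no overlap. It fell by 0.32 on the log2 scale (lower in 3 of 3 pairs, standard error 0.09, adjusted p = 0.034), a call that was lost without the pair block (adjusted p = 0.14) and without replicate 1 or 2 (adjusted p = 0.17 and 0.23). In the cortex Gclm went the other way, with 10.95, 11.32 and 10.78 in control kidneys and 11.11, 11.55 and 11.22 in congestive kidneys. The groups overlapped, yet each pair was higher on the congestive side, by 0.16, 0.23 and 0.44, and the difference of 0.28 did not pass (standard error 0.09, adjusted p = 0.087). The change in outer medulla minus that in cortex was -0.60 and did not pass over all genes (95% interval -0.89 to -0.31, adjusted p = 0.065).

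Gclc read 13.10, 13.02 and 13.14 in the control outer medulla and 12.83, 12.60 and 12.84 in the congestive one. These groups were apart, and all 3 pairs were lower, but the difference of -0.33 missed the threshold (95% interval -0.58 to -0.07, adjusted p = 0.068). In the cortex Gclc spread widely between replicate numbers, with 10.84, 11.69 and 9.95 in control kidneys and 10.59, 11.52 and 10.24 in congestive kidneys. Both kidneys of replicate 2 were high and both of replicate 3 were low, and the difference between the kidneys was -0.04 (95% interval -0.30 to 0.21, adjusted p = 0.83).

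Slc7a13, a marker of the straight proximal tubule, varied in the same way in the cortex. It read 8.65, 10.46 and 6.44 in control and 7.94, 9.24 and 7.30 in congestive cortex, and 13.01, 12.99 and 13.04 in control and 12.40, 12.06 and 12.50 in congestive outer medulla. The arrays stood in exactly the same order for Slc7a13 and Gclc, with a Spearman's rho of 1 and a Pearson's r of 0.996 over the 12 arrays, the highest r with Gclc of any other gene tested. Within the 6 cortex arrays the Pearson's r was 0.975, and within the 6 outer medulla arrays it was 0.983. For Gclm the Pearson's r with Slc7a13 was 0.954 over 12 arrays, 0.666 in cortex and 0.975 in outer medulla. The arrays share regions, kidneys and replicate numbers, Slc7a13 was singled out after its values were seen, and the part of tissue composition in the levels of Gclc was not tested.

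The third gene of the pathway, Gss, encodes glutathione synthetase, which adds glycine in the last step. Gss fell by 0.79 in outer medulla (adjusted p = 0.00088, lower in 3 of 3 pairs) and differed by 0.02 in cortex (adjusted p = 0.90). The difference between these changes was called, at -0.82 (95% interval -1.13 to -0.51, adjusted p = 0.030), but not without replicate 1, 2 or 3 (adjusted p = 0.24, 0.17 and 0.11) or without the pair block (adjusted p = 0.17). Of 25 other measured genes of glutathione synthesis and use, Gss included, cortex had 3 rises and 3 falls (7.98% and 3.64% over all genes). Outer medulla had 4 rises and 7 falls (11.8% and 11.3% over all genes). These falls in outer medulla numbered 1 without replicate 1 or without replicate 2 and 9 without replicate 3. In cortex the rises numbered 3, 0 and 1 and the falls 1, 0 and 1 without replicate 1, 2 and 3. The glutathione peroxidase gene Gpx2 rose in both regions. Its rise was 1.10 in cortex (adjusted p = 0.013, and 0.086 both without replicate 2 and without replicate 3), and the outer medulla gave 1.32 (adjusted p = 0.003). Gpx7, a peroxidase of the endoplasmic reticulum, rose by 1.15 in outer medulla (adjusted p = 0.0024) and was 0.59 higher in cortex without passing (adjusted p = 0.062).

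Txnrd1, which encodes the cytosolic thioredoxin reductase, and Srxn1, which encodes sulfiredoxin, the enzyme that restores overoxidised peroxiredoxins, were not called in either region. Txnrd1 read 9.60, 9.56 and 9.54 in control and 9.44, 9.51 and 9.43 in congestive cortex, where the groups were apart. The difference was small, at -0.11 (95% interval -0.28 to 0.07, adjusted p = 0.41). In outer medulla it was -0.15 (95% interval -0.32 to 0.03, adjusted p = 0.21), with overlapping groups.

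Srxn1 read 5.95, 6.12 and 6.20 in the control outer medulla and 6.35, 6.41 and 6.39 in the congestive one. The groups did not overlap and all 3 pairs were higher, but the difference of 0.29 did not pass (95% interval 0.06 to 0.53, adjusted p = 0.076). It passed in 3 of 12 other settings, among them without the pair block (adjusted p = 0.049) and without dim genes. In cortex the difference was 0.21 (adjusted p = 0.23), and replicate 2 accounted for most of it, since the mean was 0.07 without that replicate. Around these genes, 17 other thioredoxin, peroxiredoxin and methionine sulfoxide reductase genes were measured. Cortex had 2 rises and 4 falls (7.98% and 3.64% over all genes), and outer medulla 3 rises and 9 falls (11.8% and 11.3% over all genes). The falls numbered 0 in cortex when any replicate was left out, and 4 in outer medulla without replicate 1 or 2. Prdx5, a peroxiredoxin, fell in both regions, with -0.47 in cortex (adjusted p = 0.019, lost when any replicate was left out) against -0.75 in the outer medulla (adjusted p = 0.0012). The methionine sulfoxide reductase genes parted, with Msra lower by 0.93 (adjusted p = 0.0021) and Msrb3 higher by 1.03 (adjusted p = 0.00059) in outer medulla.

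Nqo1 encodes a quinone reductase that uses NADH or NADPH. In the control outer medulla it read 7.27, 7.24 and 7.61, and in the congestive outer medulla 6.57, 6.62 and 6.78. Every congestive array was below every control array. Nqo1 fell by 0.72 on the log2 scale (lower in 3 of 3 pairs, standard error 0.10, adjusted p = 0.0014), and the call held without any one replicate. In the cortex the values were 6.21, 6.27 and 6.35 in control and 6.02, 6.50 and 6.39 in congestive kidneys, with overlap and pairs in both directions. That difference was 0.03 (95% interval -0.19 to 0.25, adjusted p = 0.88). The cortical values lay near the array medians of 6.02 to 6.09, and whether a fall could be read at that level was not tested. In the control outer medulla Hmox1 (5.40 to 6.14), Akr1b8 (6.04 to 6.73) and Srxn1 (5.95 to 6.20) also lay near these medians. The effect of so low a signal on the size of their changes was not tested.

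Among the members, only Nqo1 was called for the difference between regions, by -0.75 (95% interval -1.06 to -0.43, adjusted p = 0.043), where 0.804% of all genes were called higher and 0.815% lower. This call was lost without the pair block (adjusted p = 0.10), with the 2 regions matched by replicate number (adjusted p = 0.058), and without replicate 1, 2 or 3 (adjusted p = 0.19, 0.20 and 0.19).

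Akr1b8 encodes an aldo-keto reductase of rodents that reduces aldehydes. It read 6.04, 6.73 and 6.22 in the control outer medulla and 7.15, 8.18 and 7.52 in the congestive outer medulla, with a clear gap between the groups. It rose by 1.29 on the log2 scale there (higher in 3 of 3 pairs, standard error 0.13, adjusted p = 0.00043). In the cortex the values were 8.01, 8.40 and 7.81 in control and 8.21, 9.24 and 8.58 in congestive kidneys. The cortical groups overlapped because replicate 2 was the highest array in both kidneys, as it was in both kidneys of the outer medulla.

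Within the cortical pairs Akr1b8 was higher by 0.19, 0.84 and 0.77. The rise of 0.60 was called with the pair block (higher in 3 of 3 pairs, standard error 0.13, adjusted p = 0.025) and not without it (adjusted p = 0.23), nor without replicate 2 or 3 (adjusted p = 0.17 and 0.15). The change in outer medulla exceeded that in cortex by 0.68 without passing (95% interval 0.25 to 1.12, adjusted p = 0.13).

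Of 25 other measured genes of quinone, aldehyde and carbonyl reduction, cortex had 2 rises and 2 falls (7.98% and 3.64% over all genes). Outer medulla had 2 rises and 12 falls (11.8% and 11.3% over all genes). Without replicate 1, 2 and 3 the cortex had 1, 0 and 0 rises and 1, 0 and 0 falls, and the outer medulla had 1, 1 and 2 rises and 8, 9 and 13 falls. Their median change was -0.18 in cortex and -0.48 in outer medulla. In outer medulla Akr1c13, an aldo-keto reductase of another subfamily, fell by 1.40 (adjusted p = 0.0028). The prostaglandin reductase gene Ptgr1 fell by 0.84 in outer medulla (adjusted p = 0.00031) and differed by -0.14 in cortex (adjusted p = 0.31), and this difference between regions was called at -0.70 (adjusted p = 0.030), a call lost without replicate 1, 2 or 3 (adjusted p = 0.22, 0.19 and 0.15) and without the pair block (adjusted p = 0.052). Aldh2, the mitochondrial aldehyde dehydrogenase, fell there too, by 0.81 (adjusted p = 0.0024). Thus Akr1b8 and Nqo1, and Akr1b8 and Akr1c13, moved in opposite directions on the same arrays. Of 9 genes that supply NADPH, 0 rose and 2 fell in each region. They were the mitochondrial transhydrogenase gene Nnt (-0.40, adjusted p = 0.036 in cortex, -0.82, adjusted p = 0.00081 in outer medulla) and the malic enzyme gene Me1 (-0.29, adjusted p = 0.047 and -0.81, adjusted p = 0.00025), whose cortical calls were lost when any replicate was left out.

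Hmox1 encodes the inducible heme oxygenase, which opens heme to biliverdin, iron and carbon monoxide. It read 6.14, 6.14 and 5.40 in the control outer medulla and 7.26, 7.63 and 7.06 in the congestive outer medulla. The gap between the groups was wide, and the control of replicate 3 was the lowest of all arrays. Hmox1 rose by 1.43 (higher in 3 of 3 pairs, standard error 0.16, adjusted p = 0.00065), and the rise was called without any one replicate. In the cortex it read 6.62, 7.47 and 6.69 in control and 7.52, 7.54 and 7.30 in congestive kidneys. One control array, that of replicate 2, was as high as the congestive arrays, so the groups overlapped. The cortical difference of 0.53 did not pass (95% interval 0.16 to 0.90, adjusted p = 0.074), and without replicate 2 it was 0.75 (adjusted p = 0.060). The change in outer medulla exceeded that in cortex by 0.90 (95% interval 0.38 to 1.42), which did not pass over all genes (adjusted p = 0.11).

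Other genes of heme and iron turnover moved both ways. Of 15 measured, cortex had 2 rises and 1 fall (7.98% and 3.64% over all genes). Outer medulla had 3 rises and 4 falls (11.8% and 11.3% over all genes), with 1 fall without replicate 1 or 2. Blvra encodes biliverdin reductase A, which acts on the product of heme oxygenase, and it fell by 1.05 in outer medulla (adjusted p = 0.0014, lower in 3 of 3 pairs). In cortex its difference was -0.16 (adjusted p = 0.51). Lrp1, the receptor that takes up heme bound to hemopexin among many other ligands, rose in both, with 0.74 in cortex (adjusted p = 0.0013) against 1.21 in the outer medulla (adjusted p = 6.1e-05). Hrg, which encodes a heme-binding plasma protein, fell by 2.02 in cortex (adjusted p = 0.007) and was 1.02 lower in outer medulla without passing (adjusted p = 0.057).

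Macrophages carry HMOX1 and the phagocyte oxidase, and the RNA of their marker genes was set beside Hmox1. All 15 macrophage markers were measured, and 14 rose in cortex (7.98% over all genes) and 15 in outer medulla (11.8% over all genes). Their mean level went from 7.22 to 7.38 on the control arrays to 8.27 to 8.28 on the congestive arrays in cortex, and from 7.26 to 7.38 to 8.50 to 8.78 in outer medulla. The rise of Hmox1 was largest in outer medulla replicate 3, at 1.66, where the mean of the macrophage markers rose by 1.12, the least of the 3 pairs. In replicate 1 the figures were 1.12 for Hmox1 and 1.41 for the markers, and in replicate 2 they were 1.49 and 1.51. The replicate 3 control was low for Hmox1, at 5.40 against 6.14 and 6.14. On the congestive outer medulla arrays of replicates 1, 2 and 3 Hmox1 read 7.26, 7.63 and 7.06. The marker mean read 8.70, 8.78 and 8.50 on them, in the same order. In congestive cortex the orders differed, with 7.52, 7.54 and 7.30 for Hmox1 and 8.28, 8.27 and 8.28 for the markers. All 6 fibroblast and pericyte markers rose as well, in both regions, and the median rise was 1.41 in cortex against 1.79 in outer medulla. Of the red cell markers 3 were measured. The globin genes Hba-a1 and Hbb-b1 were not called in outer medulla (-0.28 and -0.26, adjusted p = 0.23 and 0.20), and Slc4a1, which intercalated cells also express, fell by 1.03 (adjusted p = 1e-04). The part of any of these cell types in the rise of Hmox1, Akr1b8 or Nfe2l2 was not tested.

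Osgin1, known in human cells as a stress-induced gene whose product slows growth, had the largest fall of the members. It read 11.08, 10.79 and 10.94 in the control outer medulla and 9.94, 8.97 and 9.87 in the congestive outer medulla. The highest congestive array was well below the lowest control array. Osgin1 fell by 1.34 (lower in 3 of 3 pairs, standard error 0.14, adjusted p = 0.00041), and by 1.10 without replicate 2 (adjusted p = 0.0018).

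In the cortex Osgin1 read 8.10, 8.16 and 8.20 in control and 7.61, 7.69 and 7.69 in congestive kidneys. These groups were apart and very even, with pair differences of -0.50, -0.46 and -0.50 (SD 0.02). The mean of -0.49 did not pass in the shared model (standard error 0.14, adjusted p = 0.058), whose spread for this gene also takes in the uneven pairs of the outer medulla. It passed in 6 of 12 other settings, among them a fit of the cortex arrays alone. The change in outer medulla minus that in cortex was -0.85 (95% interval -1.30 to -0.41, adjusted p = 0.080).

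Nephron markers were counted in both regions beside the falls of the members. Of 14 proximal tubule markers 0 were called in cortex, and 6 fell in outer medulla, where the number was 1 without replicate 1 or 2 and 13 without replicate 3. Over all genes 3.64% were called lower in cortex and 11.3% in outer medulla. Their mean level was 10.69 to 10.72 in the control and 9.47 to 10.61 in the congestive outer medulla. The pair differences of this mean were -0.57, -1.25 and -0.08, beside -1.14, -1.82 and -1.07 for Osgin1, -0.70, -0.62 and -0.83 for Nqo1, and -0.35, -0.44 and -0.17 for Gclm. Of 7 thick ascending limb markers 5 fell in outer medulla, with pair differences of their mean of -0.55, -0.47 and -0.60. Of 9 distal tubule and collecting duct markers 6 fell there. In cortex 3 thick ascending limb markers fell and 1 rose, with pair differences of the mean of -0.34, -0.36 and -0.35. Of the distal tubule and collecting duct markers 5 fell in cortex, with -0.47, -0.76 and -0.54. The cortical falls of each of these lists numbered 2, 1 and 2 without replicate 1, 2 and 3. The part of tubular composition in the falls of Osgin1, Nqo1 and Gclm was not tested.

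**Figure D2:**
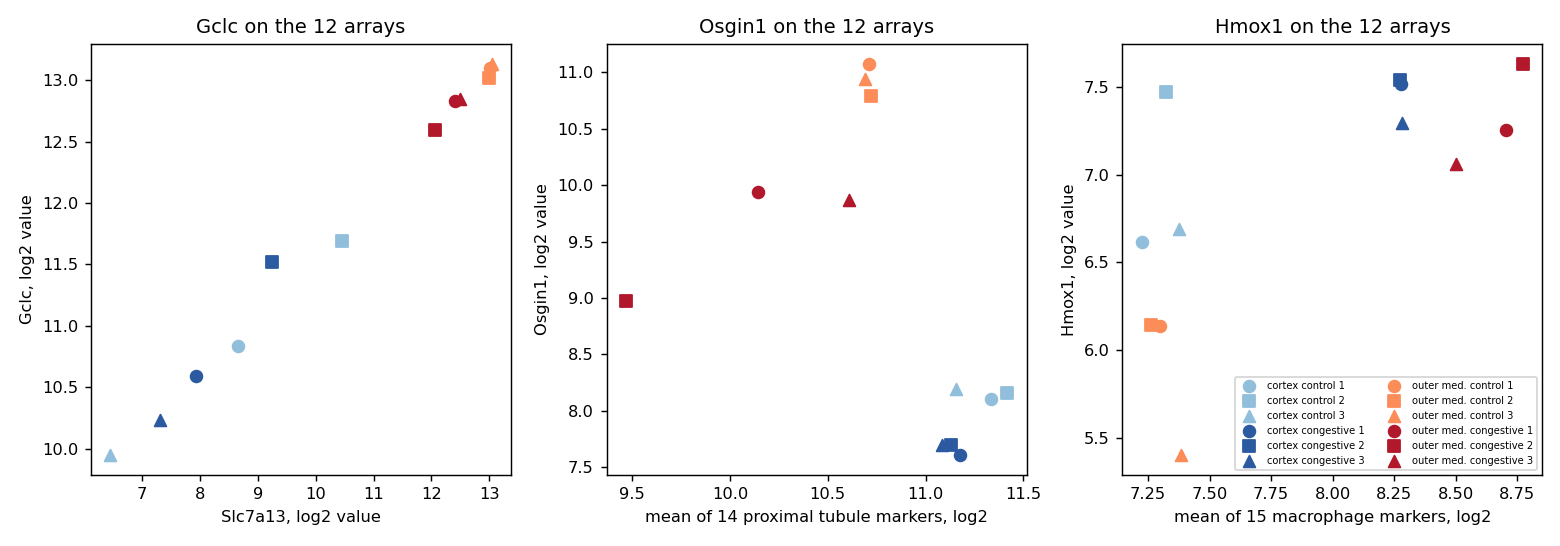
Log2 value of Gclc against Slc7a13, of Osgin1 against the mean of 14 proximal tubule markers and of Hmox1 against the mean of 15 macrophage markers, 1 point for each of the 12 arrays, coloured by group and shaped by replicate number. Gclc and Slc7a13 stand in the same order on all arrays, the lowest Osgin1 value of the outer medulla (8.97) is on the array with the lowest proximal markers (9.47), and the highest control value of Hmox1 (7.47) is on an array with macrophage markers at 7.32.

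**Figure D3:**
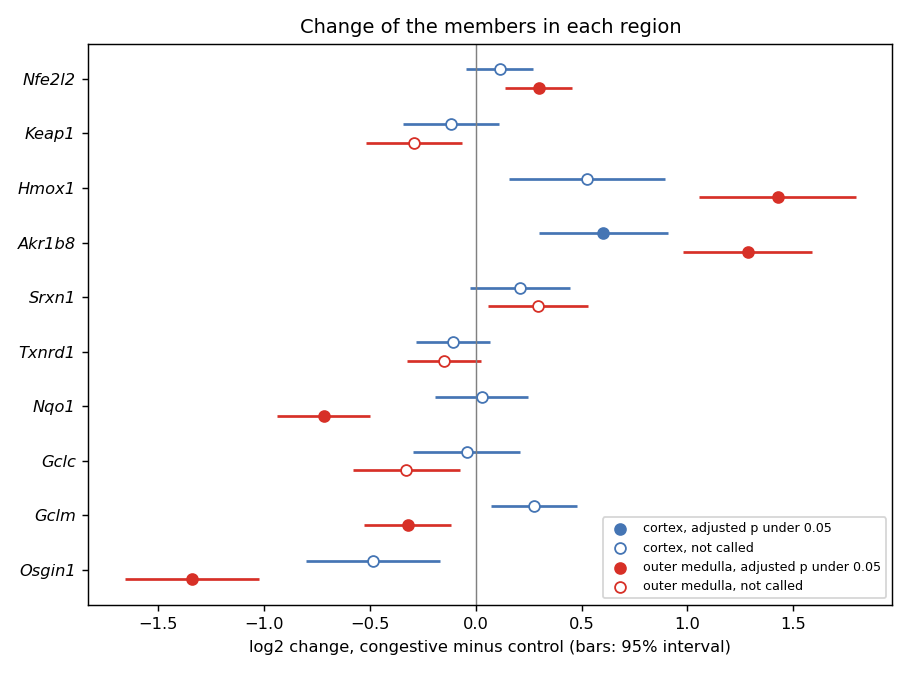
Change of each member, congestive minus control, on the log2 scale in cortex (blue) and outer medulla (red), with points at the model's estimate, bars for its 95% interval and filled points for adjusted p under 0.05. In outer medulla 3 members rose and 3 fell, from 1.43 for Hmox1 to -1.34 for Osgin1, and in cortex only Akr1b8 is filled, at 0.60.

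Between the regions of the control kidney the members were already unequal. The outer medulla was higher for Osgin1 by 2.78 (6.88-fold), for Gclc by 2.26 (4.79-fold), for Gclm by 1.74 (3.33-fold) and for Nqo1 by 1.10 (2.14-fold). It was lower for Akr1b8 by 1.74 (3.35-fold lower), for Hmox1 by 1.03 (2.05-fold lower), for Nfe2l2 by 0.31 and for Txnrd1 by 0.29. These 8 members were called, with adjusted p values from 1.7e-06 for Osgin1 to 0.021 for Txnrd1 (limma, 4 group means), where 11.4% of all genes were called higher and 10.1% lower in outer medulla. Keap1 and Srxn1 differed by 0.03 and -0.08 (adjusted p = 0.90 and 0.65). Without replicate 1, 2 or 3 the lower calls numbered 1, 2 and 2, and the higher calls 3, 4 and 4.

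The order of the 4 groups differed from gene to gene. Osgin1 stood highest in the control outer medulla, then in the congestive outer medulla, the control cortex and the congestive cortex, with no overlap between neighbours. Gclc and Gclm were high in both outer medulla groups, and their cortical groups overlapped. Akr1b8 had the reverse order, lowest in the control outer medulla, and its congestive outer medulla (7.15 to 8.18) overlapped the control cortex (7.81 to 8.40). Hmox1 was lowest in the control outer medulla and overlapped among the other 3 groups. Nqo1 was highest in the control outer medulla, next in the congestive outer medulla, and overlapped between the 2 cortical groups.

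In the congestive kidney the regions lay closer for some members. Hmox1 differed between outer medulla and cortex by -0.13 (95% interval -0.67 to 0.41, adjusted p = 0.79), Nfe2l2 by -0.12 (95% interval -0.29 to 0.05, adjusted p = 0.35) and Nqo1 by 0.35 (95% interval 0.07 to 0.64, adjusted p = 0.090). Osgin1 (1.93, adjusted p = 6.1e-05), Gclc (1.98, adjusted p = 0.0033) and Gclm (1.14, adjusted p = 0.00023) were still higher in outer medulla, and Akr1b8 (-1.06, adjusted p = 0.029) and Txnrd1 (-0.33, adjusted p = 0.012) still lower. Of all genes 8.96% were called higher and 9.73% lower. Without replicate 1, 2 or 3 the lower calls among the members numbered 0, 1 and 1. Of the higher calls, that of Gclc was lost without replicate 1, and those of Osgin1 and Gclm held without any one replicate. Nqo1 was also called higher in outer medulla when the regions were matched by replicate number (adjusted p = 0.040). The comparisons of regions share arrays with those of the kidneys, so the one is no independent evidence of the other. Whether a region difference changed with congestion is the difference between regions tested for each gene above, which among the members Nqo1 alone passed.

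In the wider set of antioxidant genes, falls outnumbered rises in outer medulla. Over 8 lists of the pathway, without the 10 members, 130 of 141 genes were measured, with 12 rises (9.23%) and 12 falls (9.23%) in cortex, against 17 rises (13.1%) and 40 falls (30.8%) in outer medulla. The all-gene shares were 7.98% higher and 3.64% lower in cortex, and for outer medulla 11.8% higher and 11.3% lower. The falls in outer medulla numbered 18, 19 and 43 and the rises 11, 13 and 14 without replicate 1, 2 and 3, and in cortex 3, 1 and 2 fell and 10, 5 and 7 rose. The proximal tubule markers that fell in outer medulla, 6 of 14, numbered 1, 1 and 13 in the same fits, and their part in the falls of the antioxidant genes was not tested. The median changes over all arrays were -0.05 in cortex and -0.11 in outer medulla. Besides the lists above, 14 genes of superoxide and peroxide removal had 1 rise in cortex and 3 rises and 4 falls in outer medulla. Without replicate 1, 2 and 3 the outer medulla had 1, 2 and 1 rises and 0, 0 and 4 falls. Sod3, the extracellular superoxide dismutase, rose by 0.56 in outer medulla (adjusted p = 0.018), with pairs of 0.36, 0.32 and 1.01 and no call without replicate 1 or 3 (adjusted p = 0.066 and 0.070). Sod1, the cytosolic enzyme, fell by 0.48 there (adjusted p = 0.0054), a call lost without replicate 1 or 2 (adjusted p = 0.058 for each). Ucp2, an uncoupling protein of mitochondria, rose in both regions, with 0.92 in cortex (adjusted p = 0.00084) against 1.08 in the outer medulla (adjusted p = 0.00016).

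**Figure D4:**
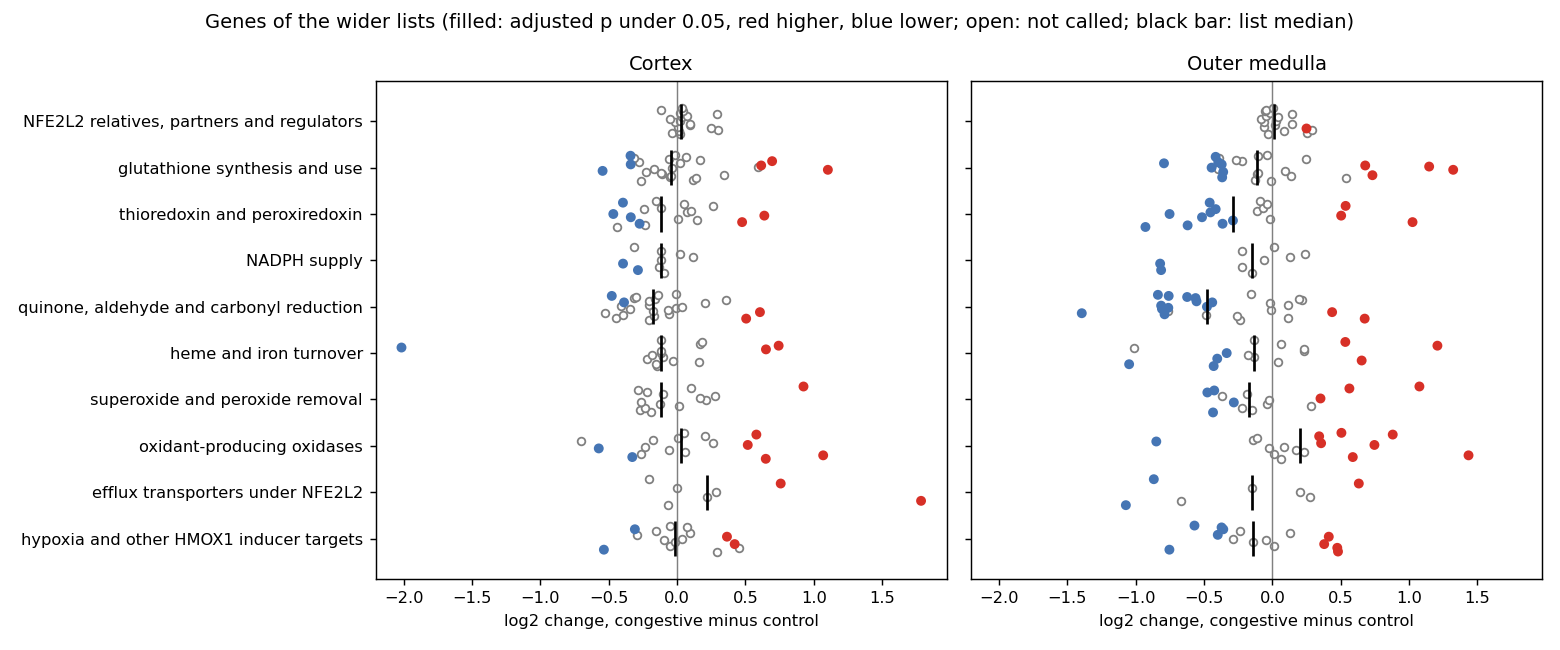
Change of each gene of the 10 wider lists, congestive minus control on the log2 scale, in cortex and outer medulla, with filled points for adjusted p under 0.05 (red higher, blue lower), open points for genes not called and black bars at the list medians. In outer medulla 12 of 25 genes of quinone, aldehyde and carbonyl reduction and 9 of 17 of the thioredoxin list are filled blue, while 7 of 16 oxidase genes are filled red.

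Among 7 efflux transporters known to answer to the factor, cortex had 2 rises (7.98% over all genes). Outer medulla had 1 rise and 2 falls (11.8% and 11.3% over all genes). Abcb1b, a multidrug transporter, rose by 1.79 in cortex (adjusted p = 0.015, and 0.10 without replicate 2) and differed by -0.67 in outer medulla (adjusted p = 0.22). Its near copy Abcb1a fell by 1.07 in outer medulla (adjusted p = 0.00091), with a difference between regions of -1.01 (adjusted p = 0.044) that was not called without replicate 1, 2 or 3 (adjusted p = 0.28, 0.27 and 0.054) or without the pair block (adjusted p = 0.30). The copies share sequence, and how far the probes keep them apart was not tested. Abcg2, another drug transporter, fell by 0.87 in outer medulla (adjusted p = 0.003).

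Genes that make oxidants were counted as well. Of 16 oxidase genes, cortex had 4 rises and 2 falls (7.98% and 3.64% over all genes) and outer medulla 7 rises and 1 fall (11.8% and 11.3% over all genes). Without replicate 1, 2 and 3 cortex had 1, 1 and 2 rises and 1, 1 and 1 falls, and outer medulla 4, 5 and 4 rises and 0, 0 and 1 falls. Cybb, the catalytic subunit of the phagocyte NADPH oxidase, rose in both, with 1.07 in cortex (adjusted p = 0.00056) against 1.43 in the outer medulla (adjusted p = 5.1e-05), and Rac2, its small GTPase in blood cells, by 0.58 and 0.88 (adjusted p = 0.020 and 0.0016), the cortical call being lost without replicate 1 or 2 (adjusted p = 0.14 and 0.065). Nox4, the oxidase of tubular cells, fell in outer medulla by 0.85 (adjusted p = 0.049), with uneven pairs of -0.85, -1.70 and -0.0007, overlapping groups and no call without replicate 1 or 2 (adjusted p = 0.20 and 0.24). In cortex its difference was -0.70, without overlap and lower in 3 of 3 pairs, and did not pass (adjusted p = 0.12). Both Cybb and Rac2 are genes of leukocytes, and of the 15 macrophage markers 14 rose in cortex and 15 in outer medulla on the same arrays. Of 15 targets of hypoxia and of other inducers of Hmox1, cortex had 2 rises and 2 falls and outer medulla 4 rises and 5 falls. The all-gene shares given for the oxidase genes apply here too. Without replicate 1, 2 and 3 cortex had 0, 0 and 0 rises and 1, 0 and 0 falls, and outer medulla 0, 1 and 3 rises and 2, 2 and 4 falls. Vegfa, the vascular growth factor gene, fell by 0.57 in outer medulla (adjusted p = 0.0014), as did the hypoxia target Ankrd37 by 0.75 (adjusted p = 0.0024), and the adrenomedullin gene Adm rose by 0.48 (adjusted p = 0.017, and 0.14 and 0.10 without replicate 1 and 2).

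Genes whose levels followed the called members most closely were listed by Pearson's r over the 12 arrays, as a description. The arrays share regions and kidneys, so most high values reflect the same 4 groups. Gclm was followed by Ppic (r 0.989), Tff3 (0.987) and Cryab (0.986), a cyclophilin, a trefoil peptide and a small heat-shock protein. Ppic and Cryab also rose in cortex, by 0.59 and 0.67 (adjusted p = 0.016 and 0.004), and fell in outer medulla, by 0.42 and 0.65 (adjusted p = 0.034 and 0.0022). Neither was called in either region without the pair block (adjusted p from 0.15 to 0.27), and Ppic was lost in cortex without replicate 1 or 3 and in outer medulla without replicate 1 or 2. Osgin1 was followed by Tmem236 (0.987), Slc7a12 (0.986) and Odc1 (0.984), the last of which encodes ornithine decarboxylase and fell in outer medulla (adjusted p = 8.6e-05). Hmox1 was followed by Ptn (0.957), which encodes pleiotrophin, Zbtb8a (0.944) and Septin11 (0.939), and Akr1b8 by Usp13 (0.959), Olr1 (0.948) and Tulp3 (0.944). Nqo1 was followed by Basp1 (0.966), Spmip4 (0.961) and Rnpep (0.959), and Nfe2l2 by Marchf7 (0.964), B3galnt1 (0.960) and Gabrp (0.945).

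Between members the same measure was 0.963 for Gclc with Gclm, 0.918 for Gclm with Osgin1, 0.909 for Nqo1 with Osgin1 and 0.829 for Akr1b8 with Hmox1. It was -0.929 for Akr1b8 with Osgin1 and -0.888 for Nfe2l2 with Nqo1. Further strong values were 0.874 for Gclc with Osgin1 and 0.856 for Gclm with Nqo1. On the negative side stood -0.819 for Nfe2l2 with Osgin1, -0.811 for Akr1b8 with Nqo1 and -0.796 for Hmox1 with Nqo1. Among the weaker values were -0.399 for Hmox1 with Gclc, -0.462 for Hmox1 with Gclm and 0.088 for Hmox1 with Txnrd1. In the control kidney Gclc, Gclm, Nqo1 and Osgin1 were higher in outer medulla, and Akr1b8, Hmox1, Nfe2l2 and Txnrd1 lower. These correlations largely restate that difference between regions. The change with congestion was not shared in cortex, where Gclm was higher and Osgin1 lower in 3 of 3 pairs.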

How the data were processed

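Cortex and outer medulla of 3 congestive and 3 control kidneys gave 12 arrays. The deposited values are log2 signals that the authors normalized between arrays in Affymetrix Expression Console. Its version, the way probes were summarized and the base of the logarithm were not given in the sources used here, and the scale was taken as log2. Of 36685 rows, 18511 carried 1 gene symbol, 575 several and 17599 none, and the brightest row per symbol left 18166 genes, with no filter on dim genes. Paired models were fitted over all arrays in limma 3.58.1 (R 4.3.3) with 6 pair blocks, and regions were compared within a condition from 4 group means, with eBayes and a threshold of 0.05 after Benjamini and Hochberg adjustment. Pairs rest on the replicate numbers of the labels and on the within-animal comparison of the study. Residuals of same-numbered arrays correlated at -0.00032, 0.137 and 0.344 in cortex and at 0.169, 0.250 and 0.207 in outer medulla. For replicate 3 of cortex the title gives the number used, while the source name gives another. All 10 members were named, with up to 3 called genes of largest change per list and the 3 most alike genes for each called member. The members and lists were chosen with earlier results of these data known. Alternatives were the pairing, the rows, a filter below the 30th percentile of genes, quantile normalization, trended and robust moderation, separate fits, the methods' t-test and leaving out each replicate.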

Additional observations from a re-analysis of the deposited data

Results flagged for a closer look

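Nqo1 was flagged because its difference between regions was called in the main fit. Its change in outer medulla minus its change in cortex was -0.75 on the log2 scale (adjusted p = 0.043, limma, lower in 3 of 3 replicate numbers). Over the alternatives the adjusted p ranged from 0.014 to 0.20, and the call was lost in 6 of 10 of them.

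Gclm was flagged because its 3 cortical pairs were all higher and its 3 outer medullary pairs all lower in the congestive kidney. The difference between regions was -0.60, and the test of it did not pass (adjusted p = 0.065).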

How the results depend on the processing

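Of 580 member values recomputed under the alternatives, 489 kept their direction and their side of the threshold, 8 changed direction without being called either way, and 0 called values changed direction. The calls of Hmox1, Akr1b8, Nqo1 and Osgin1 in outer medulla were lost only with the methods' t-test after adjustment, which called 0 members higher and 0 lower there, 0 higher and 1 lower in cortex, 2 lower between the regions of the control kidney and 0 higher and 0 lower between those of the congestive kidney. Without adjustment the methods' t-test called 0 members higher and 2 lower in cortex, and 1 lower between regions of the congestive kidney. In outer medulla it added Gclc as lower and Srxn1 as higher.

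Without the pair or replicate block 0 members were higher in cortex and 0 were called for the difference between regions. With a replicate block that matched the regions, 0 members were called lower for the difference, against 1. Over all genes the calls for this difference numbered 146 higher and 148 lower, and 77 and 72 without the block. The pairing changed no other call among the members but those of Gclm and Srxn1 in outer medulla and that of Nqo1 between regions of the congestive kidney.

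Testing all rows left 0 members higher in cortex, 0 for the difference and 1 lower between regions of the congestive kidney, and ended the outer medullary calls of Nfe2l2 and Gclm (adjusted p = 0.056 and 0.094). Without dim genes the members called were 3 higher and 1 lower in cortex, 5 lower in outer medulla and 3 lower for the difference. Srxn1 was then called higher in outer medulla too, beside the rises of the main fit. Trended and robust moderation gave 3 higher and 1 lower in cortex, 5 lower in outer medulla, and 2 higher and 3 lower for the difference. Fits of only the arrays compared gave 0 higher and 1 lower in cortex and 0 lower between regions of the congestive kidney, and in outer medulla they lost Nfe2l2 and Gclm (adjusted p = 0.054 and 0.060) and gained Gclc (0.044). Quantile normalization lost Gclm (0.093) and gained Keap1 (0.030) there.

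Leaving out 1 replicate gave 0 to 1 members higher and 0 to 1 lower in cortex, 0 to 0 lower for the difference, 1 to 2 lower between regions of the control kidney and 0 to 1 lower between those of the congestive kidney. Over all genes it gave 531 to 804 higher and 113 to 204 lower in cortex, against 1449 and 661, and 1227 to 1517 higher and 730 to 1743 lower in outer medulla, against 2150 and 2057. These fits hold 2 pairs a region. Signal over background is unknown, since no raw intensities were used here.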
